A study of Rattus norvegicus with 47 samples.

Results

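Kidneys of rats that carried pellets of depleted uranium (DU) were set against kidneys of rats that carried pellets of tungsten (W), over every gene of the deposited count table. The comparison uses 16 of the 47 libraries of the series, 8 with DU and 8 with W, chosen by the metal in the labels alone, and each result was repeated without DU replicate 6. In both groups the pellets were cylinders 1 mm across and 2 mm long, the animals were assigned to a metal at random, and the kidney was taken 12 months after the surgery. The other libraries carried tantalum (Ta), which the study used as its inert reference, aluminium (Al), cobalt (Co) or lead (Pb). Neither group is an untreated one: the comparison is between 2 metals, and values in Ta are given for some genes and as counts. Every library has a code of its own in the labels, taken here to mark a separate animal, so the p-values are read as measuring the spread between animals. The numbers in these codes run in blocks by metal, so the metal and anything else shared by a block cannot be told apart. The labels give no strain, sex, dose absorbed or uranium content of the kidney.

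Uranium that enters the blood is filtered at the glomerulus and meets the proximal tubule first, whose straight end, called S3, is the classical site of uranium injury. Cells of this tubule carry a brush border, a dense carpet of microvilli whose membrane holds peptidases that cut filtered peptides and transporters that take up sugars, amino acids and organic ions. Tungsten is also excreted by the kidney, mostly as tungstate.

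Library totals overlapped: 23069582 to 32936105 counts in DU and 24374842 to 31506996 in W. Mitochondrially encoded genes took 11.8% to 24.0% of counts in DU and 18.5% to 23.9% in W, with the lowest share in DU replicate 6. That library held Slc34a1, the main phosphate transporter of the proximal tubule, chosen after its values were seen, at 24.8 CPM, against 1864 to 3267 CPM in the other DU libraries. CPM are read counts scaled to the size of the library by the TMM method. The W libraries split by replicate number. The endothelial receptor gene Kdr lay at 39.5 to 56.3 CPM in W replicates 1 to 4 and at 4.63 to 7.45 CPM in W replicates 5 to 8. Results are therefore also given against each set of 4 W libraries, called the first W set (replicates 1 to 4) and the second W set (replicates 5 to 8). The split follows the labels' numbers but was chosen because this behaviour of Kdr was known. Kidney markers were present in both groups, with Umod, the main urinary protein of the thick ascending limb, at 484 to 5110 CPM in DU and 2481 to 5262 CPM in W.

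With all libraries, 1568 of 15868 tested genes were higher in DU (9.88%) and 1716 were lower (10.8%). Without DU replicate 6, 1000 were higher (6.32%) and 1484 lower (9.37%). A total of 916 genes were called higher in both fits (5.77%) and 1343 lower in both (8.46%), and genes named below are from these unless stated otherwise. All 8 DU libraries lay above all 8 W libraries for 167 genes (1.05%) and below all of them for 239 (1.51%). The median log2 fold change over all tested genes was 0.03, or 0.02 without DU replicate 6. With the first W set alone, 792 genes were higher (4.86%) and 824 lower (5.05%), together 9.91%, and with the second W set alone 1663 (10.2%) and 1472 (9.02%), together 19.2%. A total of 262 genes were called higher (1.65%) and 469 lower (2.96%) against both sets. Values in parentheses after a gene are its log2 fold change ± SE, DU minus W, with the adjusted p. In the same model DU differed from Ta in 15.3% of genes (7.89% higher, 7.39% lower) and W differed from Ta in 1.78% (1.42% higher, 0.366% lower), 2 comparisons that share the Ta libraries. Over the 170 genes called between DU and W that were named by rule or afterwards, DU against Ta passed in 52 of the 88 higher and 47 of the 82 lower, and W against Ta in 11 and 1, a description of genes chosen for their difference. Demanding a difference of more than 1.5-fold left 106 higher and 51 lower genes.

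**Figure D1:**
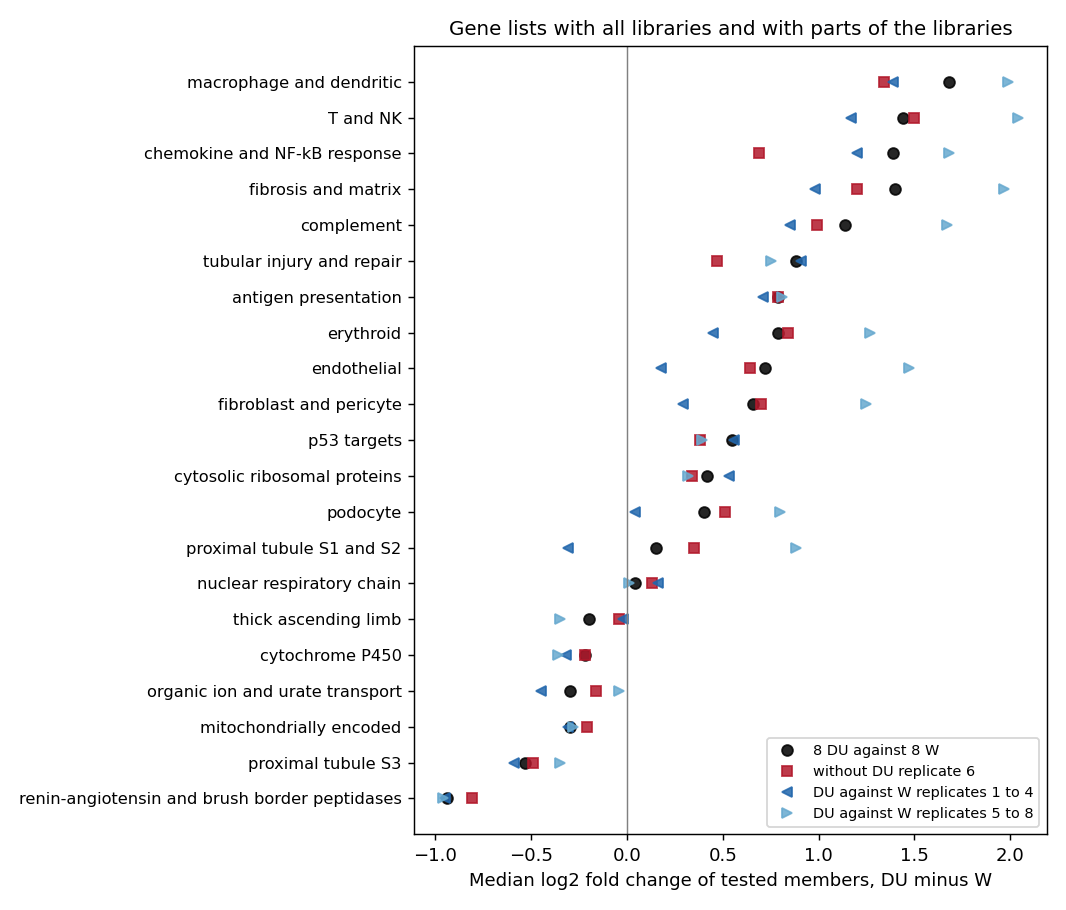
Median log2 fold change (x axis, DU minus W) of the tested members of 21 gene lists (y axis) with all 16 libraries, without DU replicate 6, and against each set of 4 W libraries. Brush border peptidases lie between -0.96 and -0.81 in all 4 settings, while endothelial markers run from 0.18 to 1.47 and chemokine genes fall from 1.39 to 0.69 without DU replicate 6. The endothelial list holds Kdr, which was used to choose the W sets.

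The brush border peptidases formed the group with the lowest median of the lists. Of 16 tested genes of this list, which also holds the renin-angiotensin genes, 10 were lower in DU and 0 were higher, with a median log2 fold change of -0.94 against 0.03 over all genes. Without DU replicate 6 the count was the same, 10 lower and 0 higher, with a median of -0.81. Against the first W set there were 6 lower and 0 higher, and against the second W set there were 9 lower and 2 higher. In bulk tissue, fewer cells of a type and less RNA in each cell cannot be told apart.

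Anpep encodes aminopeptidase N, one of the most abundant enzymes of the brush border. It lay at 48.6 to 1061 CPM (median 719.6) in DU and 1331 to 2221 CPM (median 1787) in W. Every DU library was below every W library, with DU replicate 6 lowest by far, followed by DU replicate 5. The log2 fold change was -1.42 ± 0.29 (SE, adjusted p = 0.000697), and -1.24 ± 0.22 (adjusted p = 0.000195) without DU replicate 6. Mme encodes neprilysin, which cleaves natriuretic peptides and other small peptides. It had 34.55 to 229.8 CPM (median 101.8) in DU and 237 to 427 CPM (median 332) in W, again with no overlap. Here DU replicate 5 was lower than DU replicate 6, and the log2 fold change was -1.62 ± 0.29 (adjusted p = 0.000203). The aminopeptidase A gene Enpep, whose product turns angiotensin II into angiotensin III, also separated the groups completely, at 94.1 to 230.3 CPM (median 197) in DU and 266 to 416.5 CPM (median 329.7) in W. The log2 fold change was -0.86 ± 0.15 (SE, adjusted p = 0.000133).

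Agt, the angiotensinogen gene, which marks S3 in the rat, had 23.4 to 147 CPM (median 77.7) in DU and 114.8 to 221 CPM (median 147) in W, with 6 of 8 DU libraries below every W library (-0.88 ± 0.23, adjusted p = 0.00614). Other members that fell were chosen for naming after their values were seen: the dipeptidyl peptidase gene Dpp4 (log2 fold change -1.02), the meprin gene Mep1a (-1.17), the carnosinase gene Cndp1 (-1.28), the aminopeptidase P gene Xpnpep2 (-1.06) and the glutathione-cleaving transferase gene Ggt1 (-0.70), with adjusted p-values from 0.00182 to 0.0192. None of these 5 separated the groups completely, and Ggt1 lost its call without DU replicate 5 (adjusted p = 0.0512) or W replicate 5 (adjusted p = 0.0604). Ta lay nearer to W than to DU for Anpep (median 1262 CPM, 554.1 to 1622) and Mme (median 292.3 CPM, 86.2 to 450.2). In the same fit Anpep differed from Ta by -0.92 (adjusted p = 0.0239) in DU and by 0.51 (adjusted p = 0.29) in W, 2 values that share the Ta libraries.

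**Figure D2:**
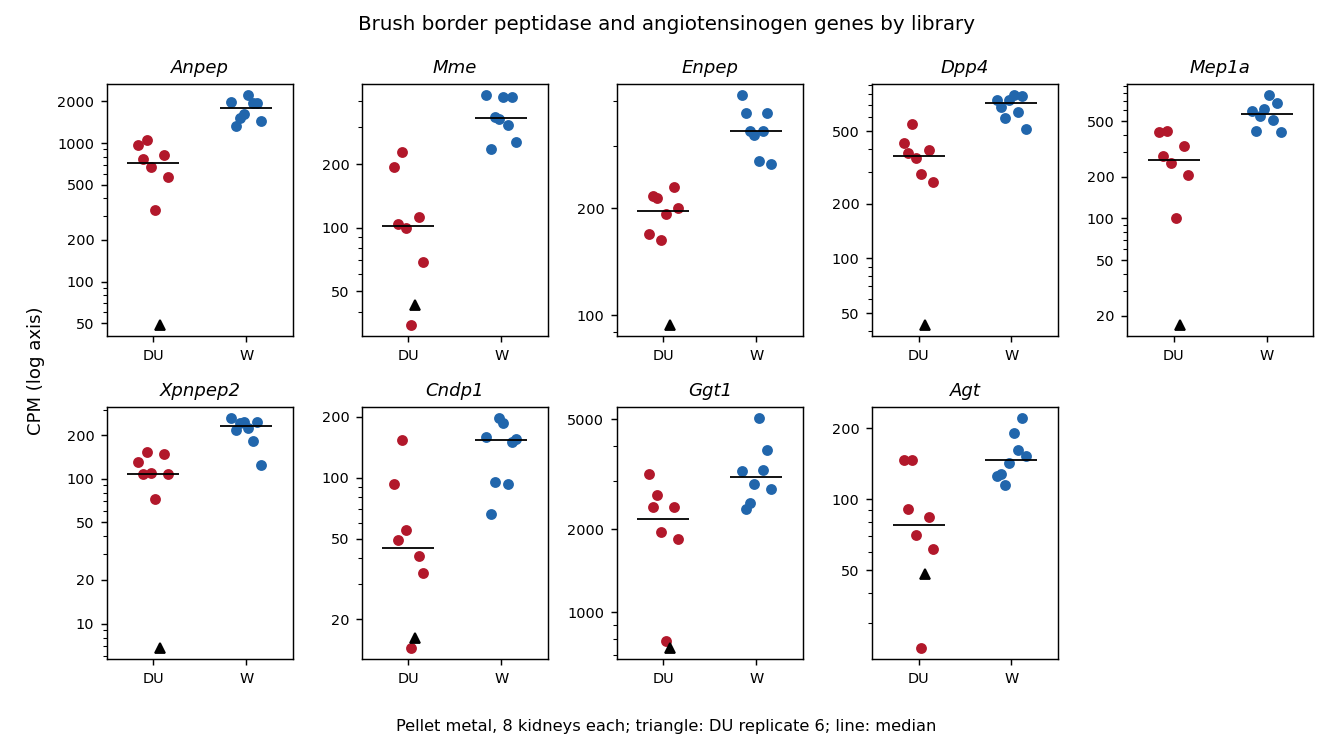
CPM on log axes of 9 brush border and renin-angiotensin genes that were lower in DU, each point 1 kidney, in the 8 DU and 8 W libraries, with a line at the median and a triangle for DU replicate 6. Anpep, Mme and Enpep show no overlap between groups, and DU replicate 6 is the lowest DU library for Anpep at 48.6 CPM but not for Mme at 43.0 CPM.

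Promoters of this list were searched for the short core of the HNF1 motif, written GTTAAT and taken on both strands; HNF1 is a transcription factor of the proximal tubule known to act on brush border genes. It stood in the 250 bases before the start of 2 of 14 members with a RefSeq entry (14.3%), Anpep and Mep1b, and in 6.46% of all 27457 promoters of that length. The Anpep stretch (GRCr8, chr1:143195102-143195351, minus strand, RefSeq) is shown because this gene separated the groups completely, 5′ to 3′ up to the base before the start, with the match, 98 to 93 bases before the start, in capitals.
Anpep: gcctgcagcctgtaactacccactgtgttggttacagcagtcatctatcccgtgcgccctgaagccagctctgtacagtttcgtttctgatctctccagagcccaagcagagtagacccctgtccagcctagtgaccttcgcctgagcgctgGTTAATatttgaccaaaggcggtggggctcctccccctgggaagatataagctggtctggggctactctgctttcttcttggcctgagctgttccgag

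Markers of the tubule's segments were counted next. Of 11 tested S3 markers 6 were lower and 2 higher (median -0.53), while of 15 tested markers of the first segments, S1 and S2, 1 was lower and 0 were higher (median 0.15). Without DU replicate 6 the counts were 5 lower and 1 higher in S3, and 1 lower and 0 higher in S1 and S2. Taking the first W set alone the S3 list had 1 lower and 1 higher (median -0.59). Against the second W set it had 4 lower and 1 higher (median -0.35). The S1 and S2 list had 1 lower and 0 higher against the first W set (median -0.31). Against the second it had 1 lower and 6 higher (median 0.88), so its median changed sign between the sets. Each set holds only 4 W libraries.

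Slc7a13, the S3 carrier of aspartate, glutamate and cystine and one of its most abundant transcripts, ranged over 13.0 to 2157 CPM (median 1040) in DU and 1735 to 4802 CPM (median 2850) in W. A total of 6 of 8 DU libraries lay below every W library, and the log2 fold change was -1.55 ± 0.46 (adjusted p = 0.0138). Slc22a7, the organic anion transporter OAT2, had 1.07 to 37.1 CPM (median 13.4) in DU and 19.6 to 92.35 CPM (median 30.55) in W (-1.48 ± 0.41, adjusted p = 0.00907). Both lost their call against the first W set, at adjusted p-values of 0.12 and 0.166. Gpx1, a glutathione peroxidase counted with the S3 markers, went the other way, from a median of 624.6 CPM in W to 901 CPM in DU (0.60 ± 0.16, adjusted p = 0.00758). The S1 and S2 gene that fell was Slc22a12, the urate transporter URAT1, at 245 to 830.5 CPM (median 656.5) in DU and 707 to 1288 CPM (median 932) in W (-0.75 ± 0.19, adjusted p = 0.00446), and its call was lost against the first W set (adjusted p = 0.187).

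Among carriers of organic ions and urate, 11 of 24 were lower and 1 was higher (median -0.30), and without DU replicate 6 the counts were again 11 and 1. They were 5 and 0 against the first W set, and 11 lower and 5 higher against the second W set. Slc17a1, a phosphate and urate transporter of the apical membrane, had the smallest p of the list. It lay at 60.7 to 100.9 CPM (median 87.9) in DU and 116.3 to 171 CPM (median 148) in W, without overlap, and the log2 fold change was -0.84 ± 0.12 (adjusted p = 1.88e-05). The Ta median lay between, at 106.5 CPM, and Ta (84.2 to 117.8 CPM) overlapped both groups. Its log2 difference from Ta was -0.33 (adjusted p = 0.0512) in DU and 0.50 (adjusted p = 0.032) in W, so here W passed the test against Ta and DU did not. The drug efflux pump gene Abcb1a, which encodes a P-glycoprotein, separated the groups as well, at 9.93 to 17.1 CPM (median 13.1) in DU and 19.6 to 33.2 CPM (median 31.0) in W (-1.05 ± 0.19, adjusted p = 0.000154). Abcg2, the urate and drug exporter of the brush border (-0.86 ± 0.17, adjusted p = 0.000581), and Slco4c1, a basolateral carrier of thyroid hormone and digoxin (-1.59 ± 0.33, adjusted p = 0.000922), were lower in DU with 7 of 8 libraries below every W library. Slco1a6, named after its values were seen, separated the groups completely (log2 fold change -1.79). Slc47a2, an efflux carrier of organic cations also named afterwards, was the member that rose, from a W median of 0.398 CPM to 1.51 CPM (1.72 ± 0.50, adjusted p = 0.0122).

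Of 20 tested glucose and amino acid transporters 6 were lower and 1 higher (median -0.08), and without DU replicate 6 there were 8 lower and 1 higher. They were 2 lower and 0 higher against the first W set and 6 lower and 6 higher against the second W set. Slc15a2, the peptide transporter PEPT2 of the late proximal tubule, which takes up the products of the brush border peptidases, had 7.09 to 156 CPM (median 72.2) in DU and 172 to 299 CPM (median 228) in W. No DU library reached the W range, and the log2 fold change was -1.57 ± 0.32 (adjusted p = 0.000674). Slc3a1, the partner subunit of the cystine transporter, had a W median of 5346 CPM and a DU median of 3187 CPM (-0.96 ± 0.25, adjusted p = 0.00593). The fructose transporter gene Slc2a5 (-1.07 ± 0.27, adjusted p = 0.0052) and the proline carrier gene Slc6a20 (-0.93 ± 0.18, adjusted p = 0.00051) were lower with 6 of 8 libraries below every W library. In the ammonia and bicarbonate list 3 of 12 were lower and 0 higher, with or without DU replicate 6: Glud1, glutamate dehydrogenase (-0.66 ± 0.13, adjusted p = 0.000358), Slc38a3, the glutamine carrier SNAT3 (-1.13 ± 0.30, adjusted p = 0.00665), and Car2, carbonic anhydrase II (-0.44 ± 0.11, adjusted p = 0.00446).

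Glutathione synthesis and peroxide removal held further genes without overlap between groups. Gclc, the catalytic subunit of glutamate-cysteine ligase, the rate-limiting enzyme of glutathione synthesis, ranged over 278.5 to 4296 CPM (median 1588) in DU and 4428 to 7737 CPM (median 5447) in W. The highest DU library, replicate 3, fell just short of the lowest W library, while DU replicates 5 and 6 were at 330.2 and 278.5 CPM. The log2 fold change was -1.72 ± 0.35 (SE, adjusted p = 0.000719), and -1.56 ± 0.33 (adjusted p = 0.00126) without DU replicate 6. Gclm, the modifier subunit of the same enzyme, had 184 to 1027 CPM (median 500.3) in DU and 1031 to 1627 CPM (median 1219) in W (-1.21 ± 0.23, adjusted p = 0.000414). Cat, catalase, which breaks down hydrogen peroxide in peroxisomes, had 84.4 to 907 CPM (median 659.9) in DU and 1022 to 1622 CPM (median 1362) in W, again without overlap (-1.14 ± 0.24, adjusted p = 0.000815).

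Over the list of targets of NRF2, the regulator that raises glutathione and detoxification genes, 3 of 19 were higher and 3 lower (median 0.03), and without DU replicate 6 there were 0 higher and 3 lower. The 3 lower were Gclc, Gclm and Osgin1 (-1.05 ± 0.30, adjusted p = 0.00995) in both fits. With the first W set alone there were 2 higher and 2 lower, and against the second W set 4 higher and 4 lower. Nqo1, a quinone reductase and standard NRF2 target, had 3.64 to 25.7 CPM (median 8.15) in DU and 6.98 to 13.2 CPM (median 9.99) in W and did not pass the test (-0.01 ± 0.22, adjusted p = 0.976). Hmox1, heme oxygenase, had 4.21 to 121.2 CPM (median 10.1) in DU and 1.25 to 9.295 CPM (median 4.81) in W. Its log2 fold change was 2.31 (adjusted p = 0.00179) with all libraries and 1.15 (adjusted p = 0.0523) without DU replicate 6, where the call was lost. In the peroxide and superoxide list, 4 of 16 were higher and 3 lower, or 1 and 3 without DU replicate 6, and besides Cat the peroxiredoxin genes Prdx6 (-0.42 ± 0.09, adjusted p = 0.00118) and Prdx3 (-0.36 ± 0.09, adjusted p = 0.00469) were lower. Of 20 glutathione transferases 4 were lower and 1 higher, the lower ones including Gstz1, maleylacetoacetate isomerase (-0.68 ± 0.18, adjusted p = 0.00685).

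Slc39a8 encodes ZIP8, a carrier that brings zinc, manganese and cadmium into the tubule cell. It lay at 11.5 to 21.5 CPM (median 17.5) in DU and 24.9 to 50.1 CPM (median 39.8) in W, without overlap, and the log2 fold change was -1.16 ± 0.22 (adjusted p = 0.0003). Mt2A, a metallothionein that binds zinc and cadmium, moved the other way, at 425 to 5960 CPM (median 716) in DU and 243 to 727 CPM (median 489) in W. Only 4 of 8 DU libraries lay above every W library, and the highest was DU replicate 6. Its log2 fold change was 1.53 (adjusted p = 0.00135), and 0.67 (adjusted p = 0.032) without DU replicate 6. Against the first W set its adjusted p was 0.05. The related Mt1 had 235.5 to 1971 CPM (median 441) in DU and 85.8 to 534 CPM (median 332) in W, and its log2 fold change of 1.02 (adjusted p = 0.0216) became 0.61 (adjusted p = 0.154) without DU replicate 6. Over the metal handling list 4 of 15 were higher and 3 lower (median 0.47), and without DU replicate 6 there were 2 higher and 3 lower. The 2 were Mt2A and Cp, ceruloplasmin, the copper-carrying ferroxidase (1.88 ± 0.44, adjusted p = 0.00242), and the lower ones included the copper pump gene Atp7b (-0.50 ± 0.16, adjusted p = 0.0183). Atp7b lost its call without W replicate 1 (adjusted p = 0.0517) or 7 (adjusted p = 0.0512).

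Metallothionein genes carry metal response elements, short motifs read by the zinc sensor MTF1. The core was searched as TGCACNC or TGCGCNC on both strands in the 250 bases before each start. It stood in 8 of 13 members of the metal handling list with an entry (61.5%) and in 21.2% of all 27457 promoters. The Mt2A stretch (GRCr8, chr19:10838709-10838958, minus strand, RefSeq) is shown because its gene kept its call without DU replicate 6, with its 4 matches in capitals, the first 3 on the reverse strand. They start 220, 165, 111 and 55 bases before the start.
Mt2A: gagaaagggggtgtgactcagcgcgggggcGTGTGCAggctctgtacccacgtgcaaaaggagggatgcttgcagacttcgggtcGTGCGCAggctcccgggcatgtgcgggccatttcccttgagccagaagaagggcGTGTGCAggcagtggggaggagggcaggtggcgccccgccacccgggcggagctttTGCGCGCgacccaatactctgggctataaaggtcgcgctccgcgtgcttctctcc

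Genes of the cytosolic ribosome were higher in DU. Of 30 tested ribosomal protein genes 23 were higher and 0 lower, with a median log2 fold change of 0.42, and without DU replicate 6 there were 16 higher and 0 lower (median 0.34). Taking the first W set alone the count was 19, and against the second W set it was 11, with 0 lower in each. In 10 of the 30 genes every DU library lay above every W library. Rps28, a small subunit protein gene, had 121.7 to 249.6 CPM (median 164.5) in DU and 49.3 to 89.3 CPM (median 71.2) in W (1.33 ± 0.17, adjusted p = 4.74e-06). Its log2 difference from Ta was 1.94 (adjusted p = 6.84e-11) in DU and 0.61 (adjusted p = 0.0478) in W. Rpl38, of the large subunit, had 147 to 302.5 CPM (median 182) in DU and 73.5 to 113.4 CPM (median 86.7) in W, and the log2 fold change was 1.14 ± 0.19 (adjusted p = 8.41e-05). Rps21 (1.05 ± 0.16, adjusted p = 2.55e-05), Rps14 (0.68 ± 0.10, adjusted p = 1.88e-05) and Rps16 (0.66 ± 0.11, adjusted p = 9.51e-05) were also above the whole W range in all 8 DU libraries. Ribosomal protein genes have many near-identical processed copies in the genome, so their counts are uncertain.

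**Figure D3:**
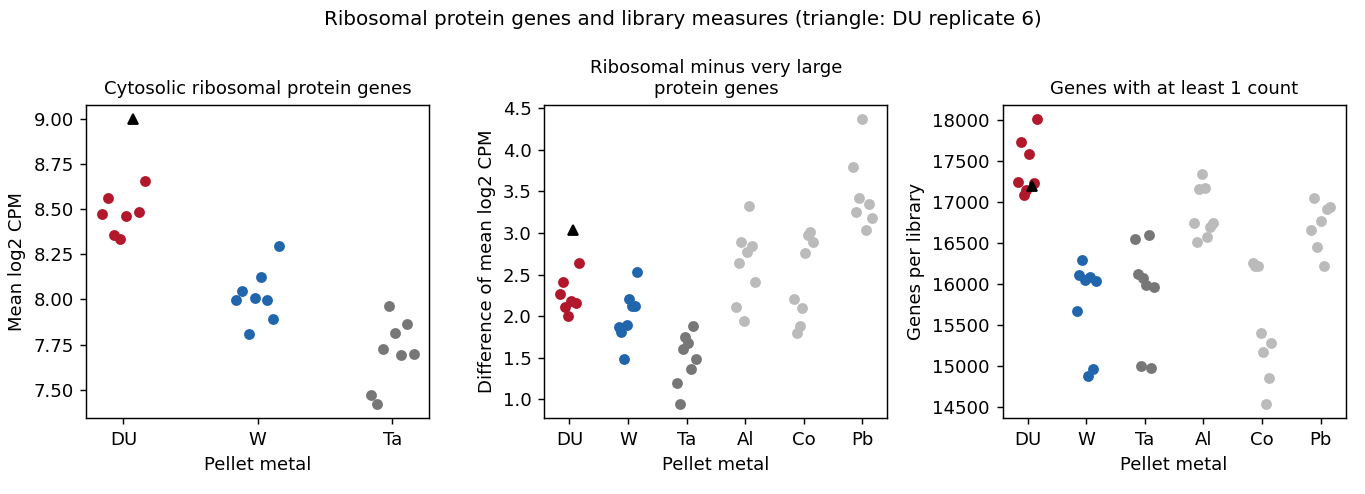
Mean log2 CPM of ribosomal protein genes in DU, W and Ta, the difference between that mean and the mean of very large protein genes in all 6 metal groups, and the number of genes with at least 1 count, each point 1 library and the triangle DU replicate 6. The DU libraries lie above all W libraries in the first panel (8.34 to 9.0 against 7.81 to 8.30) and the third (17087 to 18015 against 14878 to 16300), and overlap them in the second.

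The 10 higher genes with the smallest p also held genes outside the ribosomal list. Tomm7, a subunit of the mitochondrial import pore, had 64.6 to 107.6 CPM (median 84.6) in DU and 32.95 to 64.7 CPM (median 43.8) in W (0.87 ± 0.12, adjusted p = 7.57e-06). Cops9, a subunit of the COP9 signalosome (0.70 ± 0.10, adjusted p = 1.84e-05), and Tmem256, a membrane protein gene (0.73 ± 0.11, adjusted p = 1.96e-05), lay above the whole W range in 8 of 8 DU libraries, and Alkbh7, a mitochondrial dioxygenase gene, in 6 of 8 (0.80 ± 0.12, adjusted p = 4.71e-05). Of 26 nuclear genes of the respiratory chain 8 were higher and 1 lower (median 0.04), or 9 and 1 without DU replicate 6. Cox5b, a subunit of cytochrome c oxidase, had 212 to 486 CPM (median 419.9) in DU and 212 to 284 CPM (median 235) in W. A total of 7 DU libraries lay above every W library. The other, DU replicate 6, was level with the lowest W library, replicate 3 (211.6 and 211.8 CPM). The log2 fold change was 0.67 ± 0.11 (adjusted p = 8.41e-05). Ndufa1 of complex I (0.64 ± 0.11, adjusted p = 0.000133), Atp5me of the ATP synthase (0.80 ± 0.17, adjusted p = 0.000955) and Cox6a1 (0.42 ± 0.09, adjusted p = 0.000753) followed. Of the 13 mitochondrially encoded genes 0 were higher and 4 lower (median -0.30), and without DU replicate 6 there was 1 lower, ND5 (-0.46 ± 0.14, adjusted p = 0.0152).

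The balance between genes of small and very large proteins was also compared, and its ranges in DU and W overlapped. Measured as the mean log2 CPM of the ribosomal list less the same mean over 35 very large proteins, it was 2.35 ± 0.34 in DU and 2.00 ± 0.31 in W (SD, n = 8 each), and 1.49 ± 0.31 in Ta. It ranged over 2.00 to 3.03 in DU, 1.48 to 1.89 in W replicates 1 to 4 and 2.12 to 2.53 in W replicates 5 to 8. The ribosomal list is one side of this measure, so the 2 are not independent. With the balance as a covariate 19 of the 30 ribosomal genes were still higher, with a median of 0.22. In the same fit the brush border list had 10 lower of 16 with a median of -0.91. Other lists moved: 12 of the 35 very large proteins, the other side of the measure, were then higher and 1 lower (median 0.13). Of the 13 mitochondrially encoded genes 9 were then lower (median -0.36). Over all tested genes that fit called 1852 higher and 1847 lower. Without the covariate 2 of the 35 very large proteins were higher and 2 lower (median 0.03). Among them were Ahnak (0.55 ± 0.14, adjusted p = 0.00426), a scaffold beneath the membrane, and Birc6 (-0.37 ± 0.10, adjusted p = 0.00534), an inhibitor of apoptosis.

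Among the lower genes with the smallest p were several that are not kidney segment markers. Thada, linked to thyroid adenomas and to energy balance, had the smallest p of all tested genes. It lay at 28.05 to 55.9 CPM (median 48.0) in DU and 82.4 to 123.4 CPM (median 102.9) in W, with no overlap, and the log2 fold change was -1.18 ± 0.13 (adjusted p = 2.87e-07). Hoxb8, a homeobox gene of body patterning, had 29.45 to 66.99 CPM (median 47.5) in DU and 71.9 to 155 CPM (median 96.5) in W (-1.08 ± 0.15, adjusted p = 7.57e-06). Aoah, an enzyme that inactivates bacterial lipopolysaccharide, had 6.52 to 15.2 CPM (median 11.1) in DU and 17.1 to 36.2 CPM (median 24.8) in W (-1.23 ± 0.17, adjusted p = 1.84e-05). Both also separated the groups completely. Sema6a, a membrane semaphorin, fell further, with a W median of 109.5 CPM and a DU median of 33.1 CPM (-1.51 ± 0.22, adjusted p = 1.88e-05). Eif5b, which joins the ribosomal subunits at the start codon (-0.87 ± 0.13, adjusted p = 3.27e-05), Ccni, a cyclin (-0.61 ± 0.09, adjusted p = 1.88e-05), Taf4b, a TFIID subunit (-0.97 ± 0.15, adjusted p = 5.63e-05), Gpbp1l1 (-0.56 ± 0.08, adjusted p = 1.88e-05) and Cnpy1 (-1.43 ± 0.21, adjusted p = 2.06e-05) were below the whole W range in 8 of 8 libraries as well. For Thada the Ta libraries had 59.2 to 126.2 CPM, and the log2 difference from Ta was -1.02 (adjusted p = 4.16e-07) in DU and 0.16 (adjusted p = 0.477) in W.

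Higher genes outside the lists included Arpp19, a regulator of mitotic exit, at 44.1 to 61.3 CPM (median 56.15) in DU and 24.4 to 38.0 CPM (median 33.2) in W, with all DU libraries above all W libraries (0.74 ± 0.09, adjusted p = 3.72e-06). S100a6, a calcium-binding protein gene of epithelial and stromal cells, also separated the groups, at 90.6 to 301 CPM (median 117.8) in DU and 38.3 to 65.6 CPM (median 50.0) in W (1.47 ± 0.21, adjusted p = 1.88e-05). Col7a1 encodes the collagen of anchoring fibrils. It ranged over 7.14 to 132.4 CPM (median 12.4) in DU and 0.822 to 4.39 CPM (median 2.83) in W without overlap, and the log2 fold change was 3.18 ± 0.45 (adjusted p = 1.84e-05), or 1.98 ± 0.30 (adjusted p = 2.86e-05) without DU replicate 6. Saal1, named for its likeness to serum amyloid A, had 6.28 to 337 CPM (median 13.5) in DU and 0.616 to 6.35 CPM (median 3.90) in W. A total of 7 of 8 DU libraries lay above every W library, the highest being DU replicates 6 and 5 (3.86 ± 0.65, adjusted p = 9.51e-05, and 2.08 ± 0.46, adjusted p = 0.00175, without DU replicate 6). Pla1a, a phospholipase (3.10, then 1.44 without DU replicate 6), and Angptl4, an inhibitor of lipoprotein lipase (3.08, then 1.45), were called in both fits.

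Of 16 macrophage and dendritic cell markers 15 were higher and 0 lower, with a median of 1.68, and without DU replicate 6 10 were higher (median 1.34). With the first W set alone only 3 of the 16 were called higher (median 1.39), and against the second W set 15 were (median 1.99). C1qa, a chain of the complement starter C1q, which macrophages make, had 33.5 to 159.6 CPM (median 52.7) in DU and 5.03 to 40.3 CPM (median 18.75) in W. A total of 6 DU libraries lay above every W library, and the log2 fold change was 1.73 ± 0.42 (adjusted p = 0.00313). Tyrobp, a signalling adapter of myeloid cells, had 14.05 to 65.4 CPM (median 23.1) in DU and 3.74 to 17.6 CPM (median 8.03) in W (1.64 ± 0.38, adjusted p = 0.002), and was called against both sets of W libraries. Mrc1, the mannose receptor, had a log2 fold change of 2.41, and of 1.36 without DU replicate 6, where it was still called (adjusted p = 0.0449). The mean log2 CPM of the list was 3.14 to 5.88 in DU, highest in DU replicates 6 and 5, and 2.82 to 3.93 in the first W set, 1.19 to 3.07 in the second W set and 2.43 to 4.86 in Ta.

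Of 14 tested T and NK cell markers 8 were higher and 0 lower (median 1.44), 7 without DU replicate 6. Against the first W set the count was 0 (median 1.17), and against the second W set it was 7 (median 2.04). Cd5, a T cell surface receptor gene, had 1.73 to 4.86 CPM (median 4.30) in DU and 0.1335 to 1.63 CPM (median 0.886) in W, without overlap (1.97 ± 0.46, adjusted p = 0.00215), and against the first W set its adjusted p was 0.051. The T cell receptor chain gene Cd3d (2.17 ± 0.60, adjusted p = 0.00839) and the chemokine gene Ccl5 (1.79 ± 0.48, adjusted p = 0.00717) were higher at a few CPM. B cell and plasma cell markers had 1 of 9 higher, and 0 without DU replicate 6. In antigen presentation 10 of 17 were higher (median 0.79), 8 without DU replicate 6, 5 against the first W set and 8 against the second W set. Its class II gene RT1-Db1 had 122.3 to 296 CPM (median 177) in DU and 66.1 to 119.9 CPM (median 98.15) in W, with no overlap (1.01 ± 0.23, adjusted p = 0.00172). RT1 genes are a family of close copies, so single members are uncertain. Interferon response genes had 2 of 20 higher, near the 9.88% over all tested genes, and 1 lower. The lower one was Ddx58, the RNA sensor RIG-I, at 24.6 to 42.6 CPM (median 34.0) in DU and 40.0 to 68.6 CPM (median 55.3) in W (-0.69 ± 0.15, adjusted p = 0.000954).

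**Figure D4:**
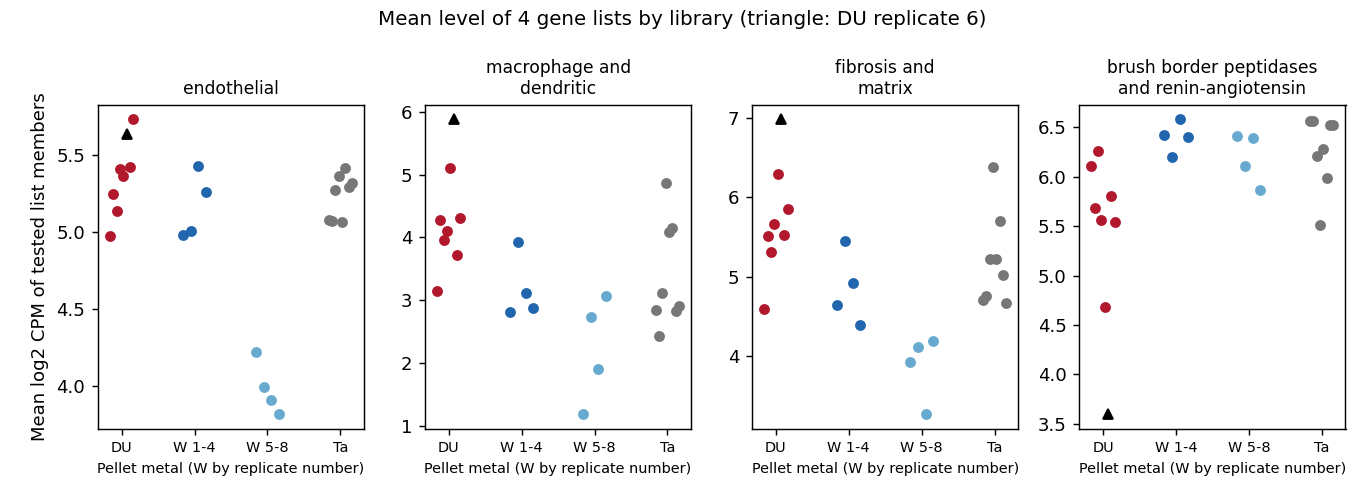
Mean log2 CPM of the tested members of 4 lists (y axis) in each library of DU, W replicates 1 to 4, W replicates 5 to 8 and Ta, with a triangle for DU replicate 6. Endothelial markers lie at 3.82 to 4.22 in W replicates 5 to 8, apart from all the other libraries drawn, while the brush border list lies at 5.86 to 6.58 over both W sets. The endothelial list holds Kdr, which was used to choose the W sets.

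Of 23 tested genes of fibrosis and matrix 19 were higher and 1 lower (median 1.40), and 16 and 1 without DU replicate 6 (median 1.20). Taking the first W set alone there were 3 higher and 0 lower (median 0.98), and against the second W set 19 higher and 1 lower (median 1.97). Col3a1, a fibrillar collagen gene, had 60.9 to 778.5 CPM (median 177) in DU and 13.9 to 157.5 CPM (median 51.1) in W (2.13 ± 0.50, adjusted p = 0.00246). Its adjusted p was 0.1 against the first W set and 0.00114 against the second, where the log2 fold change was 3.34. Col4a2, a basement membrane collagen gene, was called against both sets (1.27 ± 0.26, adjusted p = 0.000774, and 0.81 without DU replicate 6). Fibroblast and pericyte markers had 6 of 14 higher, 5 without DU replicate 6, 0 against the first W set and 7 higher with 1 lower against the second W set, and included Tagln, a smooth muscle protein gene (1.41 ± 0.29, adjusted p = 0.000843).

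Endothelial markers had 5 of 14 higher (median 0.72), 4 without DU replicate 6, 1 against the first W set (median 0.18) and 12 against the second W set (median 1.47). Egfl7, a factor secreted by endothelium, was the one called in all these fits. It had 27.7 to 68.9 CPM (median 29.5) in DU and 12.7 to 25.6 CPM (median 15.8) in W, with all DU libraries above all W libraries (1.05 ± 0.20, adjusted p = 0.000354). Kdr itself did not pass with all W libraries (0.55 ± 0.52, adjusted p = 0.487). It ranged over 20.6 to 52.1 CPM in DU, and no p is given against either W set because Kdr was used to choose the split. Kdr is 1 of the 14 endothelial markers, so the counts and medians of this list against each W set depend in part on that choice. Podocyte markers had 1 of 14 higher, where 9.88% of all tested genes were. The count was 2 without DU replicate 6, 0 against the first W set and 4 against the second W set. The one with all libraries was the transcription factor gene Tcf21 (1.08 ± 0.27, adjusted p = 0.0045). Thick ascending limb markers had 0 of 11 called with or without DU replicate 6, and Umod did not pass (-0.69 ± 0.27, adjusted p = 0.0635). Intercalated cell markers had 0 of 12 called, or 1 lower without DU replicate 6.

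Genes of injured tubules and of inflammatory signalling depended on DU replicate 6. Of 21 injury and repair genes 10 were higher and 3 lower (median 0.88), and without that library 3 higher and 3 lower (median 0.47). Lcn2, which encodes the urinary injury marker NGAL, had 10.9 to 8234 CPM (median 36.4) in DU and 5.87 to 79.6 CPM (median 8.77) in W. DU replicate 6 held the highest value, DU replicate 5 the next at 155.0 CPM, and 5 of 8 DU libraries lay within the W range. Its log2 fold change was 5.67 (adjusted p = 0.000546) with all libraries and 1.47 (adjusted p = 0.147) without DU replicate 6. Havcr1, which encodes the proximal tubule injury marker KIM-1, had 12.0 to 1179 CPM (median 31.9) in DU and 4.27 to 77.15 CPM (median 16.02) in W, and its log2 fold change went from 3.02 (adjusted p = 0.00524) to 1.12 (adjusted p = 0.226). Clu, clusterin, went from 1.37 (adjusted p = 0.0443) to 0.47 (adjusted p = 0.494), and its call was also lost without DU replicate 5 or any of 6 W libraries. Spp1, osteopontin, did not pass in either fit (adjusted p = 0.157 and 0.544). Timp1, an inhibitor of matrix proteases, was called in both fits, at 8.48 to 336 CPM (median 18.35) in DU and 3.29 to 18.1 CPM (median 6.685) in W, with 2.76 (adjusted p = 0.00096) and then 1.26 (adjusted p = 0.0405). Against the first W set there were 6 higher and 2 lower, and against the second W set 6 higher and 3 lower.

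The 3 injury genes that were lower stayed lower without DU replicate 6. They were Sox9, a transcription factor of repairing tubule cells, at 28.5 to 52.2 CPM (median 38.3) in DU and 44.3 to 84.9 CPM (median 70.6) in W (-0.86 ± 0.14, adjusted p = 9.51e-05), Prom1, a progenitor marker (-0.89 ± 0.22, adjusted p = 0.00335), and Tff3, a trefoil peptide of the tubule (-0.97 ± 0.28, adjusted p = 0.0109). A total of 7 of 8 DU libraries lay below every W library for Sox9 and Prom1, and 4 of 8 for Tff3.

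**Figure D5:**
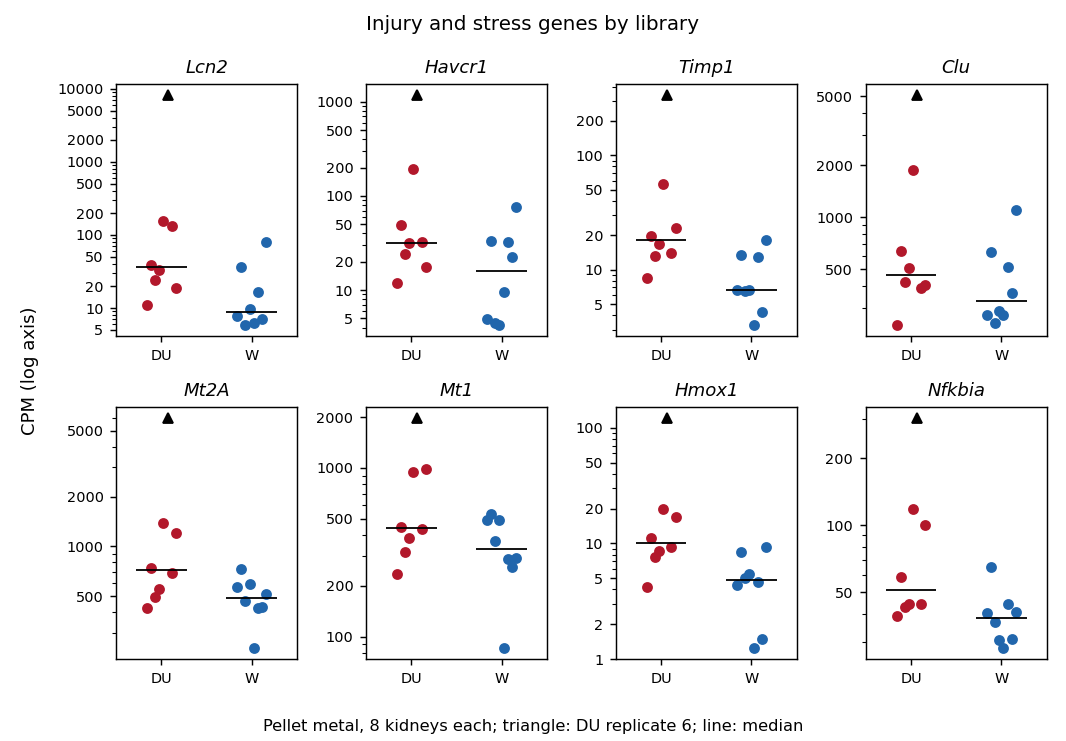
CPM on log axes of 8 injury and stress genes in the 8 DU and 8 W libraries, each point 1 kidney, with a line at the median and a triangle for DU replicate 6. DU replicate 6 is the highest of the 16 libraries for all 8 genes, for example Lcn2 at 8234 CPM and Mt2A at 5960 CPM, and the other DU libraries overlap with W for each of them.

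Of 22 chemokine and NF-kB response genes 18 were higher and 0 lower (median 1.39), and without DU replicate 6 4 were higher and 0 lower (median 0.69). Taking the first W set alone there were 10 higher, and against the second W set 15, with DU replicate 6 in both. The 4 were Nfkbia, the inhibitor of NF-kB that NF-kB itself induces (1.24 ± 0.27, adjusted p = 0.00121, and 0.70 ± 0.20, adjusted p = 0.0139, without DU replicate 6), the adhesion molecule gene Icam1 (1.34 ± 0.32, adjusted p = 0.00274, and 0.69 without DU replicate 6), the neutrophil and monocyte protein gene S100a8 and the cytokine gene Il6. Il6 had 0 to 22.1 CPM (median 0.4835) in DU and 0 to 0.0776 CPM (median 0) in W, and S100a8 had 0.0789 to 142.5 CPM (median 0.510) in DU and 0 to 0.369 CPM (median 0) in W. Both were at 0 or near it in W, and in DU replicate 6 they stood at 22.1 and 142.5 CPM, and the next highest DU libraries were DU replicate 5 for Il6 at 1.42 CPM and DU replicate 7 for S100a8 at 3.92 CPM. Without DU replicate 6 the adjusted p was 0.0209 for Il6 and 0.0406 for S100a8, on few or no W counts. The neutrophil chemokine gene Cxcl1, named after its values were seen, had a DU median of 1.59 CPM and 246.9 CPM in DU replicate 6, and lost its call without it (adjusted p = 0.209).

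Promoters of the chemokine and NF-kB list were searched for the NF-kB motif on both strands in the 250 bases before the start. It stood in 9 of 18 members with an entry (50.0%) and in 6.41% of all 27457 promoters. Those of Nfkbia (GRCr8, chr6:78597073-78597322, minus strand, RefSeq) and Il6 (GRCr8, chr4:5894576-5894825, minus strand, RefSeq) are shown because both genes kept their call without DU replicate 6 and had a match, in capitals, starting 31 and 68 bases before the start. S100a8 had no entry.
Nfkbia: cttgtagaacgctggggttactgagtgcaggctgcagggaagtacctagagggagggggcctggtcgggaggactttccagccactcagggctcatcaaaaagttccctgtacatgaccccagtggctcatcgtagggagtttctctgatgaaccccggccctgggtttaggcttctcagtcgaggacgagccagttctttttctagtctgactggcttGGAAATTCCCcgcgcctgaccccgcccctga
Il6: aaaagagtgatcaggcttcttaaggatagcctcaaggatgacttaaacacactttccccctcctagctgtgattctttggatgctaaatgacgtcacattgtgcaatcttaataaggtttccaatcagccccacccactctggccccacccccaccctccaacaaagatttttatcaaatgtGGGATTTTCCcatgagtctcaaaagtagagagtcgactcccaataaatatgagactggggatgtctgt

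Among p53 targets 7 of 16 were higher and 0 lower (median 0.55), and 5 without DU replicate 6. With the first W set alone the count was 7, and against the second W set it was 4. Fas, a death receptor gene, had 1.56 to 14.5 CPM (median 3.60) in DU and 0.356 to 2.34 CPM (median 0.834) in W, with 6 of 8 DU libraries above every W library (2.28 ± 0.43, adjusted p = 0.0003). Bax, an effector of apoptosis, had 53.4 to 70.5 CPM (median 60.8) in DU and 33.2 to 54.0 CPM (median 41.5) in W (0.51 ± 0.11, adjusted p = 0.0013). Cdkn1a, the cell cycle inhibitor p21, had 13.2 to 29.9 CPM (median 19.2) in DU and 7.10 to 16.7 CPM (median 10.3) in W, with 6 of 8 above every W library (0.92 ± 0.24, adjusted p = 0.0058), and 0.84 ± 0.24 (adjusted p = 0.0155) without DU replicate 6. Btg2, an antiproliferative gene, was higher as well (0.82 ± 0.20, adjusted p = 0.00355). Of 20 DNA repair genes 0 were higher and 1 lower, or 1 and 0 without DU replicate 6, and of 18 cell cycle genes 1 was higher, or 0 without DU replicate 6. Over all tested genes 9.88% were higher and 10.8% lower with all libraries.

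Globin and other red cell genes were higher in 5 of 8 with and without DU replicate 6 (median 0.79), 1 against the first W set and 5 against the second W set. Hbb, a beta globin gene, had 128.2 to 349.9 CPM (median 177) in DU and 34.5 to 114.2 CPM (median 64.2) in W, with no overlap (1.56 ± 0.30, adjusted p = 0.000358). Here DU replicates 5 and 6 were the lowest DU libraries. Hbb-b1, Hba-a1 and Hba-a2 had log2 fold changes of 1.01, 0.75 and 0.71, and Hba-a1 lost its call without DU replicate 2 (adjusted p = 0.0569) or 8 (adjusted p = 0.0536). These genes are near-identical copies within the alpha and beta families, so the share of each is uncertain. Of 13 heme genes 4 were lower and 2 higher, among them Alas1, the first enzyme of heme synthesis in tissues other than blood (-0.51 ± 0.12, adjusted p = 0.00326), and Cpox (-0.61 ± 0.14, adjusted p = 0.00211).

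Of 22 cytochrome P450 genes 8 were lower and 3 higher (median -0.22), 6 and 1 without DU replicate 6. They were 3 lower and 1 higher against the first W set, and 6 and 3 against the second W set. Cyp2c11, known as the main male-specific P450 of rat liver, had 0.443 to 9.998 CPM (median 3.93) in DU and 4.80 to 174 CPM (median 50.5) in W. A total of 6 of 8 DU libraries lay below every W library, although W itself ran over a wide range, and the log2 fold change was -3.95 ± 0.63 (adjusted p = 5.99e-05). Cyp2c24, a relative in the same family, had 7.215 to 29.35 CPM (median 14.9) in DU and 17.9 to 112.8 CPM (median 58.7) in W (-2.07 ± 0.35, adjusted p = 0.000102). Both stayed lower against each set of W libraries. Cyp4a3, a fatty acid hydroxylase of the tubule, was lower too (-0.85 ± 0.20, adjusted p = 0.0024). Cyp1b1, a P450 of vessels and stroma, was higher at low counts, with 0.0663 to 4.93 CPM (median 1.45) in DU and 0 to 0.349 CPM (median 0.06075) in W (4.31 ± 1.03, adjusted p = 0.00275). Cyp24a1, which breaks down vitamin D, did not pass (-0.32 ± 0.27, adjusted p = 0.424).

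Of 23 genes of fatty acid oxidation 5 were lower and 2 higher (median -0.19), or 2 and 1 without DU replicate 6. Acadl, a dehydrogenase of mitochondrial beta oxidation, lay at 214 to 256 CPM (median 246) in DU and 268 to 357 CPM (median 302) in W. The groups did not overlap, and the log2 fold change was -0.34 ± 0.09 (adjusted p = 0.00906). Of 19 cholesterol genes 2 were higher and 2 lower, near the 9.88% and 10.8% over all tested genes. Among them was Srebf2, the master regulator of the pathway, which was above the whole W range in 8 of 8 DU libraries (0.47 ± 0.10, adjusted p = 0.00103). Its target Fdft1, squalene synthase, was lower (-0.53 ± 0.14, adjusted p = 0.00703). Of 17 hypoxia targets 2 were higher with and without DU replicate 6, where 9.88% and 6.32% of all tested genes were. They were the glycolytic regulator gene Pfkfb3 (1.11 ± 0.25, adjusted p = 0.0014) and the hexokinase gene Hk2 (1.28 ± 0.37, adjusted p = 0.0115).

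Of 15 heat shock genes 1 was higher and 3 lower, or 1 and 2 without DU replicate 6. Over all tested genes 9.88% were higher and 10.8% lower. Hspb1, a small chaperone, had 49.6 to 123.2 CPM (median 71.7) in DU and 30.9 to 57.2 CPM (median 42.8) in W, with 7 of 8 DU libraries above every W library (0.94 ± 0.20, adjusted p = 0.00114), while the mitochondrial chaperone gene Hspd1 was lower (-0.33 ± 0.10, adjusted p = 0.0186). Of 18 genes of endoplasmic reticulum stress 2 were higher and 1 lower, or 0 and 3 without DU replicate 6. The integrated stress response had 4 of 15 higher, and 0 without DU replicate 6. Of 22 immediate early genes 7 were higher, or 3 without DU replicate 6, and the latter included Klf2, a flow-responsive factor of endothelium (0.84 ± 0.20, adjusted p = 0.00307). Of 26 proteasome genes 3 were higher, near the 9.88% over all tested genes, and 0 lower. Without DU replicate 6 there were 2 higher, Psmb6 (0.43 ± 0.10, adjusted p = 0.00182) and Psmb5 (0.29 ± 0.08, adjusted p = 0.0109).

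Complement genes had 8 of 19 higher and 1 lower, or 7 and 2 without DU replicate 6, 1 and 1 against the first W set and 10 and 1 against the second. The lower one was Cd59, which shields cells from the membrane attack complex, at 43.2 to 72.7 CPM (median 54.85) in DU and 68.1 to 107.7 CPM (median 87.5) in W (-0.58 ± 0.12, adjusted p = 0.000956). Of 22 growth factor genes 1 was higher and 1 lower with and without DU replicate 6. Over all tested genes 9.88% were higher and 10.8% lower, or 6.32% and 9.37% without DU replicate 6. Igfbp1, a binder of insulin-like growth factors, had 43.2 to 1997 CPM (median 66.2) in DU and 35.5 to 97.5 CPM (median 45.7) in W, with DU replicate 6 far above the rest and only 3 of 8 DU libraries above every W library (2.64 ± 0.50, adjusted p = 0.000357, and 0.91 ± 0.28, adjusted p = 0.0238, without DU replicate 6). Bmp4, a morphogen, was lower (-1.09 ± 0.27, adjusted p = 0.00332). Among sodium and potassium genes 0 of 20 were higher and 2 lower, the latter near the 10.8% over all tested genes. Of these, Cul3, a ubiquitin ligase subunit that controls the sodium chloride cotransporter through WNK kinases, was below the whole W range in all 8 DU libraries (-0.31 ± 0.07, adjusted p = 0.00207). Of 8 thin limb genes 2 were lower, among them Aqp1, the water channel shared with the proximal tubule (-0.76 ± 0.26, adjusted p = 0.0346). Aqp1 lost its call without DU replicate 5 or without W replicate 1, 3, 4 or 7 (adjusted p from 0.0507 to 0.0689).

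Large falls at a low level were found in Anxa13, an annexin of epithelial cells, at 0.624 to 8.05 CPM (median 2.73) in DU and 8.76 to 45.8 CPM (median 21.9) in W (-2.87 ± 0.51, adjusted p = 0.000162), and Atp1a4, a sodium pump subunit known from sperm, at 0.416 to 1.92 CPM (median 1.435) in DU and 2.44 to 8.49 CPM (median 5.73) in W (-2.12 ± 0.41, adjusted p = 0.000358). Both separated the groups completely, as did Magec2 (-2.66 ± 0.53, adjusted p = 0.000498). Serpinb12 (-4.45 ± 0.96, adjusted p = 0.00115), Eps8l3 (-2.39 ± 0.40, adjusted p = 9.19e-05), Epha3 (-2.48 ± 0.44, adjusted p = 0.000186), Syce1 (-2.45 ± 0.45, adjusted p = 0.00022), Frmd1 (-2.52 ± 0.53, adjusted p = 0.00088) and Cyp8b1 (-2.27 ± 0.65, adjusted p = 0.0116) were also among the 10 largest falls, with 3 to 7 of 8 DU libraries below every W library. Cyp8b1, with 3, lost its call against the first W set (adjusted p = 0.0768). On the higher side Rtn4rl2 had a DU median of 2.28 CPM and 32.7 CPM in DU replicate 6 (3.44 ± 0.81, adjusted p = 0.00239, and 2.19 without that library). Tex33 had a DU median of 1.54 CPM, with 12.9 CPM in DU replicate 1 and 0 in DU replicate 6 (3.21 ± 1.10, adjusted p = 0.0317). It lost its call without DU replicate 1 (2.20, adjusted p = 0.144), without W replicate 1, 3, 4 or 6 (adjusted p from 0.0535 to 0.0562), and against the second W set (adjusted p = 0.211).

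A small set of genes was close to silent in W. A total of 4 genes had at least 5 counts in every DU library and at most 3 counts over all 8 W libraries, and 0 genes met the reverse. The same counts chose these genes, so a high ratio follows from the rule. The ratios and intervals below only describe the 4 genes and are not a test. They leave out the spread between animals. Gpr179, an orphan receptor of retinal bipolar cells, had 484 counts over the DU libraries (at least 22 in each) and 1 count over the W libraries, a ratio of 442.6 after scaling (95% interval 79.07 to 17520, exact binomial, counting error only). The others were named after their values were seen. Cacng2, the AMPA receptor partner stargazin, had 296 counts in DU (12 to 63 in each) and 0 in W, at least 90.2-fold higher against a floor of 3 counts over the group. Hand2, a transcription factor of heart and limb, had 177 (7 to 34 in each) and 0, at least 54.0-fold higher. Chrna10, an acetylcholine receptor subunit gene, had 274 (7 to 79 in each) and 2, a ratio of 125.3 (34.35 to 1040).

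Other metals had counts of these genes as well. For each of the 4 genes, the counts over Al and over Pb were above those over Ta, W and Co. They were below those over DU. The code numbers of the Ta, W and Co libraries all lie below those of Al, Pb and DU. The metal and the block of numbers therefore cannot be told apart here. Cacng2 had 2 counts over the Ta libraries, 16 in Co and 155 in Pb, and Hand2 had 0 in Ta, 12 in Co and 86 in Al. Gpr179 had 18 in Ta, 55 in Co, 154 in Al and 293 in Pb. Chrna10 had 49 in Ta, 25 in Co and 149 in Pb. The number of genes with at least 1 count was also higher in DU, at 17405 ± 333 against 15761 ± 549 in W (SD, n = 8 each). It was higher in every DU library than in any W library (exact permutation test, two-sided, p = 0.000155, the smallest that 8 against 8 can give). DU replicate 6 had the lowest total count of the 16 libraries, and 17194 genes with at least 1 count. The range was 14981 to 16604 in Ta, 16515 to 17344 in Al, 14538 to 16257 in Co and 16219 to 17050 in Pb. The medians fell on the same sides: 16033.5 in Ta, 16041 in W and 15340.5 in Co, against 16744 in Al, 16767 in Pb and 17237.5 in DU. The 4 genes can add at most 4 to this number in any library, while the means of DU and W differed by 1643.6 genes. The cause of that difference was not tested.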

How the data were processed

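Kidney RNA was sequenced in 47 libraries, of which 8 with DU pellets and 8 with W pellets are compared here, grouped by the metal in the labels. The authors deposited whole-number read counts per gene, made with STAR 2.7.2a and featureCounts of Subread 1.6.4 on mRatBN7.2, per the submitters' processing notes; the annotation and the settings for strand and multiply mapped reads are not given in the sources used here. A total of 29 broken lines of the table, which include 5 very long genes, were left out, and 22525 genes remained. Counts were fitted over all 47 libraries with edgeR 4.0.16 in R 4.3.3 (filterByExpr, TMM scaling, quasi-likelihood test, Benjamini-Hochberg adjustment over all tested genes, threshold 0.05, no covariate, common dispersion 0.124). Every adjusted p is from this edgeR test, repeated without DU replicate 6. All values printed as CPM use TMM-scaled library sizes, and means of lists use log2 CPM with a prior count of 2. No 2 DU libraries and no 2 W libraries agreed within sampling noise, and other pairs were not compared.

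The genes compared, the gene lists and the split of the W libraries were chosen with earlier results of these data known. Named genes were called with and without DU replicate 6, with a mean of at least 1 CPM: the 10 largest changes each way, the 10 smallest p each way with a mean of at least 10 CPM, up to 4 of each list by p, and a fixed panel of injury and metal genes. Some genes that met the rule are not reported here. Others are said to be chosen after their values were seen. Replicate numbers shared by DU and W did not pair the libraries: the correlations of same-numbered deviations ran from -0.282 to 0.045, and 0 of 8 pairs passed 0.1. Alternatives were DESeq2 1.42.0, limma 3.58.1 with voom, other scalings, filters, covariates, sets of libraries and leaving out each library. The scripts were tested on simulated data.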

Additional observations from a re-analysis of the deposited data

Results flagged for a closer look

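In 33 of 306 groups of 8 libraries tested for a named gene or list, 1 library stood far from the other 7 by Dixon's ratio. Chance alone gives about 1 in 20 for independent groups. These groups reuse the same 16 libraries, and genes were named for large changes or after their values were seen. The 33 therefore cannot be set against that rate. DU replicate 6 was the library apart in 24 of the 33. Values are log2 CPM, with that of the nearest library beside them.

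It was the lowest DU library for these transporter, enzyme and chaperone genes: Abcg2 (5.70, next 6.49), Anpep (5.61, next 8.35), Aqp1 (5.05, next 8.13), Car2 (7.19, next 8.09), Cat (6.40, next 8.35), Cyp4a3 (5.87, next 7.99), Dpp4 (5.43, next 8.04), Enpep (6.56, next 7.35), Hspd1 (8.31, next 9.06), Mep1a (4.10, next 6.65), Slc34a1 (4.64, next 10.86) and Xpnpep2 (2.78, next 6.18). It was the highest for genes of injury, matrix, metal binding and other kinds: Col7a1 (7.05, next 3.98), Cxcl1 (7.95, next 2.54), Egfl7 (6.11, next 5.26), Hmox1 (6.92, next 4.31), Lcn2 (13.01, next 7.28), Mt2A (12.54, next 10.43), Pla1a (7.0, next 4.03), Rps16 (9.68, next 9.14), S100a6 (8.23, next 7.27) and Saal1 (8.40, next 5.25). Its mean over the chemokine and NF-kB list was 6.09 (next 3.45) and over the list of S1 and S2 markers 5.98 (next 7.68).

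Among the others, Tcf21 was lowest in DU replicate 1 (3.79, next 4.49). Cd5 was lowest in W replicate 5 (-2.26, next -0.62). Chrna10 was highest in W replicate 8 (-2.88, next -3.73). Col7a1 was lowest in W replicate 7 (-0.16, next 1.09). Gpr179 was highest in W replicate 3 (-3.16, next -3.73). Mt1 was lowest in W replicate 5 (6.42, next 8.02). ND5 was highest in W replicate 5 (12.97, next 12.57). Slc22a7 was highest in W replicate 5 (6.53, next 5.26). Sox9 was lowest in W replicate 4 (5.47, next 6.0). For Gpr179 and Chrna10 the W library that stood apart is the one holding the few counts of that gene. The causes were not tested.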

How the results depend on the processing

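The number of called genes depended most on the libraries and on the demand for size. With all libraries 3284 genes were called. A fold of at least 1.5 left 157 (106 higher, 51 lower), leaving out DU replicates 5 and 6 together 1732 (651 and 1081), taking only W replicates 1 to 4 1616 (792 and 824), and taking those without DU replicate 6, an alternative chosen after seeing the data, 1326 (592 and 734). Fitting only the DU and W libraries called 1097 lower genes. Leaving out 1 library at a time gave 2484 genes (without DU replicate 6) to 3491 (without DU replicate 1), with 1000 to 1746 higher and 1355 (without DU replicate 5) to 1781 (without DU replicate 3) lower. The replicate block called 3393 genes (1683 higher and 1710 lower), or 2654 without DU replicate 6, and the numbers did not pair the libraries. DESeq2 called 3622, limma with voom 4313, and the balance covariate 3699. Of 170 genes named by rule or afterwards and called with all libraries 17 lost the call when at least 1 of the libraries was left out. Larger changes moved more of all 176 named genes: 44 were scored weaker without DU replicates 5 and 6, and 67 against the first W set. Against the first W set without DU replicate 6, 90 were scored the same, and with a fold of at least 1.5, 55 were. Against the second W set alone 156 were scored the same. Clu changed direction, to -0.08 on the log2 scale, when DU replicates 5 and 6 were both left out. The causes were not tested.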
